A study of Mus musculus with 16 samples.

Results

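The 6 h and 12 h arrays of D10 T cells treated with Akti1/2 were compared to describe what changed between the mid and the late phase of the response to CD3/CD28 stimulation while Akt was inhibited. D10 is a mouse Th2 cell line, grown with recombinant human IL-2, and Akti1/2 is an allosteric inhibitor of the kinases Akt1 and Akt2. Treated cells were first exposed to the inhibitor at 10 µM during 1 h. Biotinylated antibodies against CD3 and CD28, crosslinked by streptavidin, then stimulated them for 6 h or 12 h. The control cells received the same stimulation without the inhibitor (the study describes them in one place as untreated and in another as given solvent). These are 4 of the 16 arrays of the series (2 arrays at each time), and the 4 control arrays at 6 h and 12 h were used for comparison. All 8 groups come from 1 cell line, so the data describe 1 clone, and nothing in the labels says that replicates were separate cultures. The p-values therefore measure the spread between these arrays, which may be technical.

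Of the 18138 genes on the arrays, 7395 were above the negative control beads on at least 2 of the 16 arrays and were tested, and 6111 were above them on all 4 arrays of the treated cells. The median intensity of the 4 arrays lay between 121.8 and 145.2, against a mean of the negative controls between 112.9 and 135.0, and each array had between 6474 and 6719 genes above background. Values below are normalized log2 intensities, or differences of them, except where a fold or a summed marker intensity is named. A difference of 1 on this scale is a doubling. The treated arrays at 6 h were the least alike of the 8 pairs of replicates, with a correlation of 0.986 and a median difference of 0.212 between them, and those at 12 h correlated at 0.993 with a median difference of 0.144. In both treated groups replicate 1 lay on chip 1 and replicate 2 on chip 2, so that arrays of the same number compare the times within a chip.

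Helper T cells answer the T cell receptor with a first wave of cytokines and transcription factors, and then with growth, a glycolytic metabolism and division. Akt, which is activated through PI3K, is known to promote glucose uptake, sterol synthesis and cell cycle entry, and to hold FOXO factors out of the nucleus. The labelled cell type was checked against defining genes. All 9 T helper genes on the arrays (Cd3d, Cd3e, Cd3g, Cd247, Cd4, Cd2, Cd28, Lck and Lat) were above background on all 4 treated arrays, as were 6 of 8 Th2 genes (Gata3, Il4, Il5, Il13, Ccr8 and Il1rl1), whereas Ccr4 and Maf were above it on none of the 4. None of 7 B cell or 6 fibroblast genes was above background on any of the 4 arrays. In such bulk samples, fewer cells expressing a gene and less RNA in each cell cannot be told apart.

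In the treated cells 1313 genes changed from 6 h to 12 h, which is 17.8% of the 7395 genes tested (limma, Benjamini-Hochberg adjusted p under 0.05, called below). Of these, 659 were higher at 12 h (8.91% of genes tested) and 654 were lower (8.84%). The median size of their change was 0.617 and 149 genes changed by at least 1, of which 78 rose and 71 fell. All 1313 changed in the same direction on both chips, but they were selected on these same arrays, so this adds little to the calls. A fit without 1 array leaves 1 array in its group, and the spread then comes from the other groups. The count depends on which array is left out: it was 597 without the first and 710 without the second treated array at 12 h, 713 without the second at 6 h, and 1509 without the first at 6 h. It was 335 when the 4 arrays were fitted alone. When each array was instead scaled to a common 95th percentile without background correction, 879 genes were called, of which 62.8% were higher, against 50.2% above. Among the genes named below, Btg1, Cltb, Dut, H4c3, Melk and Phlda3 lost their calls under that scaling. Sizes of change depend on the background correction for dim genes: with quantile normalization and no correction, the change of Ak4 was 1.43 in place of 2.42, that of Tk1 -0.548 in place of -0.974, that of Dnajc6 -1.01 in place of -2.001 and that of Cfl1 -0.861 in place of -1.90.

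The largest rises were in genes of several roles. Ak4, a mitochondrial adenylate kinase, was at 6.40 and 6.35 on the 6 h arrays and at 8.86 and 8.73 on the 12 h arrays. Ankrd37, a known target of the hypoxia-inducible factor, was at 7.90 and 8.67 and then at 10.84 and 10.42. For both genes each 12 h array lay above each 6 h array, and the rise was 2.42 ± 0.14 (SE, n = 2 arrays in each group) for Ak4 (adjusted p = 3.08e-06) and 2.35 ± 0.24 for Ankrd37 (adjusted p = 5.38e-05). Next came Mreg, a regulator of organelle trafficking, with a rise of 2.09, Eno2, a glycolytic enolase, with 1.98, and Pfkl, a phosphofructokinase, with 1.72. The glucose transporter genes Slc2a1 and Slc2a3 rose by 1.66 and 1.64, the lipid droplet gene Hilpda by 1.61, and the heparan sulfate proteoglycan gene Sdc4 by 1.61. Smpd1, the acid sphingomyelinase, rose by 1.61, Fzd7, a Wnt receptor, by 1.54 and Dusp4, a phosphatase of MAP kinases, by 1.54. Each of these 12 genes was called whichever treated array was left out, with the highest adjusted p, 0.00282, for Dusp4.

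The largest falls were in genes with other roles. Phlda1, a pleckstrin homology domain gene induced by T cell receptor signals, went from 9.25 and 9.71 at 6 h to 7.35 and 7.50 at 12 h, and fell by 2.06 ± 0.16 (SE; adjusted p = 8.17e-06). Zmat3, a target of p53, went from 8.99 and 9.62 to 7.20 and 7.48 and fell by 1.97 ± 0.20 (adjusted p = 5.07e-05). On these genes too the 4 arrays did not overlap between the times. Dnajc6, the auxilin co-chaperone, fell by 2.00, Cfl1, the actin-severing cofilin, fell by 1.90, and Maob, a monoamine oxidase, fell by 1.80. Areg, which encodes the EGF receptor ligand amphiregulin, fell by 1.69, and Nkg7, a cytotoxic granule gene, fell by 1.60. The H2B histone genes H2bc4, H2bc7, H2bc9 and H2bc11 fell by 1.79, 1.65, 1.57 and 1.54. Hba-a1, an alpha globin gene, fell by 1.64, and it was the only one of 4 erythroid genes above background (Hbb-b1 and Alas2, among the others, were above it on none of the 4 arrays). Each of these 12 genes was called whichever treated array was left out, with the highest adjusted p, 0.0096, for H2bc4.

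**Figure D1:**
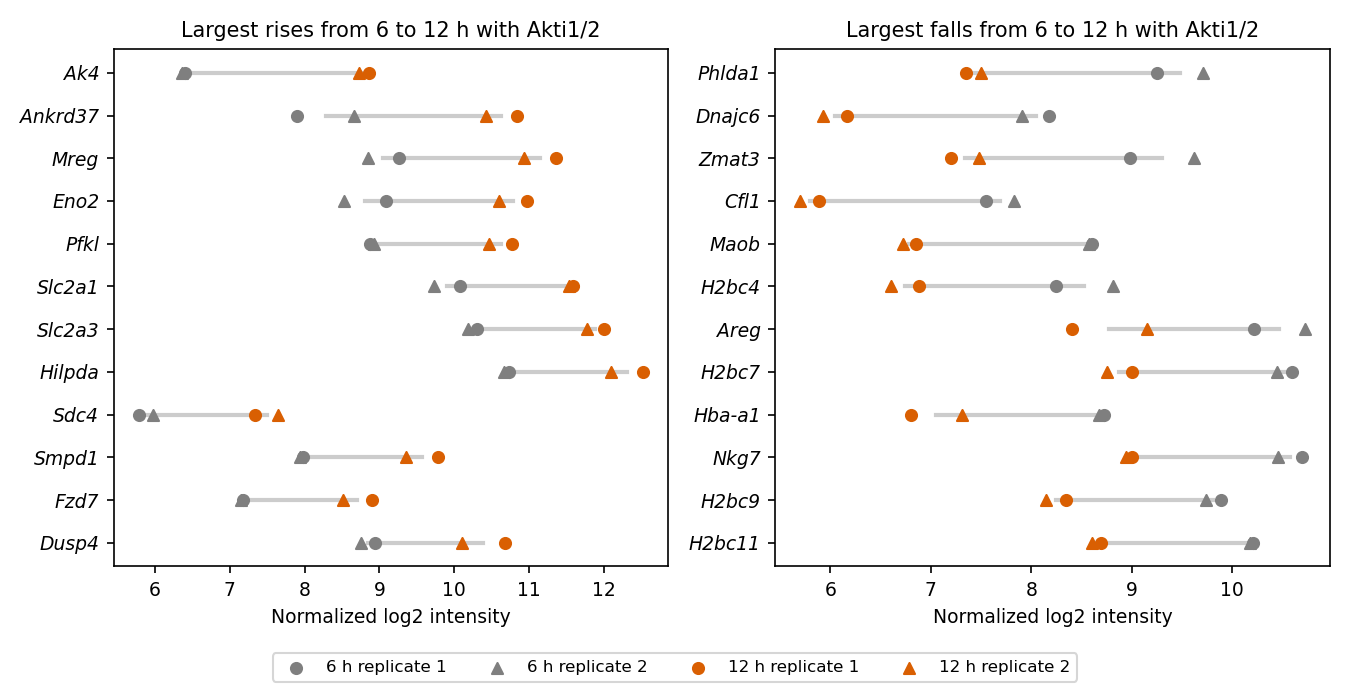
Normalized log2 intensity (horizontal axes) of the 12 genes with the largest rises (left) and the 12 with the largest falls (right) on each of the 4 treated arrays, where grey is 6 h, orange is 12 h, circles are replicate 1 and triangles replicate 2. The grey lines join the means of the 2 times, and for all 24 genes both 12 h arrays lie on the same side of both 6 h arrays, from Ak4 with a rise of 2.42 to H2bc11, which fell by 1.54.

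Some genes crossed the background. In 36 called genes both 12 h arrays and neither 6 h array were above background, and in 38 it was the reverse, so that only a bound of the fold is known. Some of these genes are counted in the lists below, in the hypoxia and feedback rises and in the histone, activation receptor and homing falls. The bound is the ratio of the mean of the bright group to the lowest signal above background on the arrays of the dim group. Cox6a2, a subunit of cytochrome c oxidase known from heart and muscle, was at least 3.64-fold higher at 12 h (measured means 5.24 at 6 h and 7.45 at 12 h). It was above background on 2 of the 16 arrays, both treated arrays at 12 h, and so passed the filter only through the group where it is high, and its call is not read as support. Bcar1, an adaptor of adhesion signalling, was at least 1.98-fold higher, and St3gal1, a sialyltransferase, at least 1.79-fold higher. In the other direction Fez1, a kinesin adaptor, was at least 2.07-fold lower, Cltb, a clathrin light chain, at least 1.81-fold lower, and the histone gene H4c3 at least 1.64-fold lower. H4c3 likewise passed the filter only through the 2 treated arrays at 6 h, and its call, lost without the second treated array at 12 h (adjusted p = 0.0546), is not read as support.

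Most genes of the hypoxia response rose. The list held 14 tested genes, and 9 of them were higher at 12 h (8.91% over all tested genes) and 0 lower, while 5 did not pass the test, with a median change of 0.85 against 0.00 over all genes tested. Slc2a1, which also belongs to it, was at 10.08 and 9.73 at 6 h and at 11.59 and 11.53 at 12 h (rise 1.66 ± 0.14, adjusted p = 1.47e-05). Vegfa, the angiogenic growth factor, was at 8.21 and 8.22 and then at 9.40 and 9.22 (rise 1.10 ± 0.12, adjusted p = 0.000127). Egln1, the oxygen-dependent prolyl hydroxylase that marks the factor for degradation, rose by 1.07 and Ndrg1 by 0.80. The list kept between 8 and 10 rises when single treated arrays were left out, and its median stayed between 0.44 and 0.89 under all other settings tried. The factor binds DNA at a site with the core ACGTG, often preceded by T. RefSeq promoter windows, which run from 250 bases before to 50 bases after a start site (build GRCm38.p6), were found for 12 of the 14 genes, and 5 of these held TACGTG on either strand in at least 1 window (5 of 18 windows, 27.8%), against 3.23% of all 32851 windows. Of the 5 genes 3 were called higher, and the other 2 did not pass the test. Of the 3, 1 was above background on neither 6 h array and is known only as at least 1.43-fold higher. The windows of Ankrd37 (chr8:45999801-46000100, minus strand, matches starting 242 and 7 bases before the start site) and Egln1 (chr8:124949205-124949504, minus strand, match starting 69 bases before it) are printed because these are the named members with a match, which is in capitals.
Ankrd37 promoter: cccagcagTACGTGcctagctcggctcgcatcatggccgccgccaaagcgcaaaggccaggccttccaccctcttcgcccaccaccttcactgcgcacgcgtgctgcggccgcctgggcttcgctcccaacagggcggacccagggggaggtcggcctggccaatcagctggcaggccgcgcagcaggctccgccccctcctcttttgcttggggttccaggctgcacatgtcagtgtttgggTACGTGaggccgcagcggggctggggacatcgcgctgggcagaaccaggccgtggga
Egln1 promoter: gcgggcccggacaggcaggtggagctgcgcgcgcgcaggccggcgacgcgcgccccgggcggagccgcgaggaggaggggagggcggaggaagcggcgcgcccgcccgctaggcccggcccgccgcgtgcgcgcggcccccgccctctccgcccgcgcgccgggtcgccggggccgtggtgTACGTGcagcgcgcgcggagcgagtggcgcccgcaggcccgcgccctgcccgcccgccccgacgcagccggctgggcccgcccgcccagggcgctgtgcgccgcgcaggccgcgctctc

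Glycolysis genes rose in part. Of 17 tested genes of glycolysis and of glucose or lactate transport, 7 were higher at 12 h (8.91% over all genes) and 0 lower, with a median change of 0.32. Slc2a3, the high-affinity glucose transporter, was at 10.31 and 10.18 at 6 h and at 12.00 and 11.77 at 12 h. Pfkl was at 8.87 and 8.93 and then at 10.78 and 10.46, and its rise of 1.72 ± 0.12 had an adjusted p of 4.78e-06. Tpi1, triosephosphate isomerase, rose by 1.10 ± 0.10 (adjusted p = 1.94e-05). Eno1, the common enolase and the brightest gene of the list, did not pass the test, with 13.52 and 13.54 at 6 h and 13.38 and 13.43 at 12 h (adjusted p = 0.458), in contrast to Eno2. Between 6 and 7 of the genes were called when single treated arrays were left out. In control cells 5 hypoxia genes and 6 glycolysis genes were also higher at 12 h (background 6.95% of genes tested), and the hypoxia count was 2 without the second control array at 6 h or the first at 12 h, and the glycolysis count 3 without the latter.

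Canonical histone genes fell. They encode the core and linker histones that package newly made DNA, and most of their transcripts end in a stem-loop in place of a poly(A) tail, so that arrays labelled from total RNA with a poly(A)-primed kit see them in part. Of 41 tested histone genes, 31 were lower at 12 h (8.84% over all genes), H4c3 among them, and 0 higher, with a median change of -0.72. H2bc7 was at 10.60 and 10.45 at 6 h and at 9.0 and 8.75 at 12 h and fell by 1.65 ± 0.12 (adjusted p = 7.06e-06). H1f2, a linker histone gene, was at 11.52 and 11.61 and then at 10.14 and 9.97 and fell by 1.51 ± 0.10 (adjusted p = 4.78e-06). H2bc15 and H2bc12 fell by 1.45 and 1.35. Members of this family are nearly identical in sequence, so a probe may bind transcripts of several of them and single members are uncertain. With each treated array left out in turn, 24 to 27 were called lower. In control cells 11 histone genes were lower (background 6.64%) and 0 higher, with a median of -0.25. The octamer ATTTGCAT, a known element of H2B promoters that binds Oct-1, was present on either strand in 9 of the 36 histone promoters found (25.0%), against 1.74% of all windows, and 7 of these 9 were called lower. Some neighbouring H2A and H2B genes have overlapping windows that hold the same site, so the 9 are not 9 separate sites and include H2A genes. The 7 of 9 lie near the 31 of 41 called lower in the whole list, so no link to the octamer is read from them. The window of H2bc12 (chr13:22035571-22035870, plus strand), the named member with a match, is printed with the octamer in capitals, starting 30 bases before the start site.
H2bc12 promoter: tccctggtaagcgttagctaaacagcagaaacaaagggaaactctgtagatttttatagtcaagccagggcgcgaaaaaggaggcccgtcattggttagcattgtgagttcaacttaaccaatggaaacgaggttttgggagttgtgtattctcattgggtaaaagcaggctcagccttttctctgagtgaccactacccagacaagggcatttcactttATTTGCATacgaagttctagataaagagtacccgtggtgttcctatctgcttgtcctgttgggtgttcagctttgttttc

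Part of the genes of DNA replication and of mitosis fell, and most members of both lists did not pass the test. Of 40 tested replication and S phase genes, 12 were lower and 0 higher, with a median change of -0.26, and of 34 mitosis genes 13 were lower and 0 higher, with a median of -0.29, beside 8.84% lower over all genes. Tk1, the S phase thymidine kinase, was at 7.84 and 7.91 at 6 h and at 6.92 and 6.89 at 12 h and fell by 0.97 ± 0.11 (adjusted p = 0.000151). Dut, which removes dUTP, fell by 0.89, Orc6, a subunit of the origin recognition complex, fell by 0.63, and Lig1, the ligase that joins Okazaki fragments, fell by 0.56. Mcm5, a subunit of the replicative helicase and the brightest gene of the list, was at 12.75 and 12.44 and then at 12.50 and 12.21, and did not pass the test (adjusted p = 0.23). Among the mitosis genes, the cyclin gene Ccnb1 was at 10.44 and 10.74 at 6 h and at 9.57 and 9.89 at 12 h (adjusted p = 0.00201). The mitotic kinesin genes Kif2c and Kif23 fell by 0.82 and 0.73, and the kinase gene Melk fell by 0.60. The counts depend on single arrays: the replication genes called lower numbered 6 without the second treated array at 6 h and 7 without either one at 12 h, and the mitosis genes 5, 5 and 7 without the second at 6 h, the first at 12 h and the second at 12 h. The E2F sites TTTGGCGC, TTTCCCGC, TTTGCCGC and TTTCGCGC, searched on both strands, were present in windows of 11 of the 29 replication genes found (11 of 35 windows, 31.4%), against 2.26% of all windows, and 4 of the 11 genes were called lower. The window of Lig1 (chr7:13278576-13278875, plus strand) is printed as the named and called member with a match, in capitals within the transcribed end of the window.
Lig1 promoter: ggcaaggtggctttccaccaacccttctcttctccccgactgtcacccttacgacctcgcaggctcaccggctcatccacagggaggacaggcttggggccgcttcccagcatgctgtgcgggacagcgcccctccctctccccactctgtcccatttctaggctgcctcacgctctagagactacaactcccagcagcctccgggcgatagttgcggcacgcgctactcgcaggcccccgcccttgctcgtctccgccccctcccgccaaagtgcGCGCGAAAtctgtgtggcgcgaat

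Lysosome and stress response genes were among the rises. Of 31 lysosome and autophagy genes, 7 were higher (8.91% over all genes) and 1 lower, with a median change of 0.24. Sqstm1, which encodes the autophagy receptor p62, was at 12.03 and 12.18 at 6 h and at 13.20 and 13.14 at 12 h (rise 1.06 ± 0.12, adjusted p = 9.91e-05). Neu1, a sialidase, rose by 0.87, and Atp6v0d1, a subunit of the proton pump that acidifies lysosomes, by 0.72, whereas Gusb, beta-glucuronidase, fell by 0.86. The rises numbered 3 and 4 without the first and the second treated array at 12 h. Of 25 genes of the integrated stress response and amino acid supply, 7 were higher and 1 lower, with a median of 0.26. Nupr1, a stress-induced chromatin protein, was at 7.03 and 7.10 and then at 8.58 and 8.47 (rise 1.46 ± 0.13, adjusted p = 2.74e-05), and Trib3, a pseudokinase known to bind Akt, rose by 0.79. The 7 became 4, 3 and 4 without the second treated array at 6 h, the first at 12 h and the second at 12 h. The palindromic site TCACGTGA, known from lysosomal genes as the CLEAR element that TFEB binds, was in windows of 6 of the 21 lysosome and autophagy genes found (6 of 24 windows, 25.0%), against 0.974% of all windows, and 1 of the 6 genes was called higher. The window of Atp6v0d1 (chr8:105566015-105566314, minus strand), the named member with a match, holds it from 4 bases before the start site, in capitals.
Atp6v0d1 promoter: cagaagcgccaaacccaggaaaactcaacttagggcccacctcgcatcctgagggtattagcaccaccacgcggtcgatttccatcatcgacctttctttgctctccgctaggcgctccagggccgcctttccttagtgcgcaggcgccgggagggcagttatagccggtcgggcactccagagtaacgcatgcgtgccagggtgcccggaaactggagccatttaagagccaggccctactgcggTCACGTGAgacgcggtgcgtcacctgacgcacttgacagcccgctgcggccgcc

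Signalling and effector genes of the T cell moved in both directions. Of 17 genes of feedback on cytokine and MAP kinase signalling, 7 were higher and 1 lower, with a median of 0.20, beside 8.91% higher and 8.84% lower over all genes. Dusp4 was at 8.94 and 8.76 at 6 h and at 10.68 and 10.10 at 12 h (adjusted p = 0.000151), and Pim2, a survival kinase gene downstream of STAT5, rose by 1.51. The 7 became 2 without the second treated array at 6 h or the first at 12 h. Of 19 cytokine genes 1 was higher and 5 were lower. Il3, a growth factor of myeloid and mast cells, was at 10.01 and 9.74 and then at 11.06 and 11.70 (rise 1.51 ± 0.23, adjusted p = 0.000939). Il5, the eosinophil growth factor and a hallmark of Th2 cells, went the other way, from 10.85 and 10.54 to 9.22 and 9.78, a fall with an adjusted p of 0.00788 that was 0.0866 without the first treated array at 12 h. Il4, the cytokine that defines Th2 cells, was at 11.97 and 11.96 and at 12.31 and 12.09 and did not pass the test (adjusted p = 0.27). The cytokine falls numbered 1 without the first treated array at 12 h and 3 without the second at either time.

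Of 8 chemokine genes 2 were higher and 3 lower at 12 h, beside 8.91% and 8.84% over all genes. Ccl3, an inflammatory chemokine, rose by 0.71 (12.01 and 11.97 at 6 h, 12.55 and 12.85 at 12 h, adjusted p = 0.00234), and Ccl4 was at 13.07 and 13.16 and then at 13.68 and 13.78, with a call that was lost without the second treated array at 12 h (adjusted p = 0.0701). The 3 falls became 2 without the first treated array at 6 h or the second at 12 h and 0 without either of the others, and 1 of the rises was lost without the second at 12 h. Among 14 activation and checkpoint receptors 5 were higher and 4 lower. Ctla4, the inhibitory receptor of B7 ligands, was at 11.35 and 11.28 at 6 h and at 12.65 and 12.70 at 12 h (rise 1.36 ± 0.13, adjusted p = 3.77e-05), and the costimulatory receptor gene Tnfrsf9 rose by 0.62. Cd69, the early activation marker, was at 10.59 and 11.05 and then at 9.97 and 10.16, with a call that held with 2 of the 4 treated arrays left out (adjusted p up to 0.09, without the second at 6 h). Those rises numbered between 2 and 4 and the falls between 1 and 3 with single treated arrays left out.

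In most of the next lists, shares of called genes lay near or above the 17.8% over all genes tested, or rested on few genes. Of 24 genes of the PI3K, Akt and mTOR pathway 2 were higher and 3 lower, among them Tsc1, a brake on mTORC1, with a rise of 1.08 (adjusted p = 0.00236), and Pik3cg, a catalytic PI3K subunit, which fell by 0.96 (adjusted p = 0.00176). Of 22 genes of the T cell receptor complex 1 was higher, the exchange factor gene Vav1 with a rise of 0.83, and 3 were lower, among them Prkcq, the PKC isoform of the immune synapse, which fell by 0.68. Cd3e was at 11.03 and 10.92 and then at 10.40 and 10.51 (adjusted p = 0.00618, and 0.0567 without the first treated array at 12 h). Of 20 FOXO factors and quiescence targets 3 were higher and 3 lower, including the transcription factor gene Klf6, which fell by 0.92. Of 18 lineage transcription factors 3 were higher and 1 lower, and Bhlhe40, a cofactor of cytokine expression, was at 8.81 and 9.29 and then at 10.71 and 10.44 (rise 1.52 ± 0.24, adjusted p = 0.00123). The death receptor gene Fas rose by 1.12, among 3 rises and 3 falls in 23 apoptosis genes, and 16 interferon response genes had 3 rises and 0 falls. These small counts rest on single arrays: with each treated array left out, the FOXO list had 0 to 1 rises, the lineage list 1 to 4, and the PI3K list 1 to 2 rises and 1 to 3 falls, with the fewest of each without the first treated array at 12 h. Of 15 cytokine receptors 2 were higher and 1 lower, and of 14 homing and adhesion genes 1 and 3. Below the 17.8% lay the 18 NF-κB genes with 1 and 0 and the 9 immediate early genes with 0 and 0. Counts of the T cell receptor, apoptosis, interferon and homing lists also moved with single treated arrays left out. Medians then ran from -0.201 to 0.0655 for the T cell receptor list and from 0.0675 to 0.427 for the interferon list.

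Some target genes of p53 and of ribosome biogenesis fell, beside 8.84% of all tested genes. Of 17 p53 target genes 6 were lower and 0 higher, with a median of -0.26, and in control cells 9 were lower (6.64% over all genes) and 0 higher, with a median of -0.46. Ccng1, an atypical cyclin, was at 10.23 and 10.52 at 6 h and at 9.19 and 9.15 at 12 h (fall with an adjusted p of 4.17e-05), and Phlda3 and Gtse1 fell by 0.87 and 0.69. Of 41 ribosome biogenesis genes 9 were lower and 1 higher, with a median of -0.28. Pes1, a factor of large subunit assembly, fell by 0.86 (adjusted p = 0.000427), and Polr1c, a subunit of RNA polymerases I and III, was the 1 that rose (0.83). Of 68 genes of oxidative phosphorylation 9 were lower, a count near that share, and 2 higher, with a median of -0.20. Cox6a2, which passed the filter only through the treated arrays at 12 h and whose call is not read as support, is 1 of those 2. Cox7a1, another muscle-type subunit of cytochrome c oxidase, fell by 0.65, and Atp5o, a subunit of ATP synthase, was at 9.42 and 9.24 and then at 8.67 and 8.84 (adjusted p = 0.00598, and 0.0607 without the first treated array at 12 h). Without the second treated array at 6 h, the first at 12 h and the second at 12 h, the falls were 5, 1 and 4 for ribosome biogenesis and 2, 1 and 4 for oxidative phosphorylation. Few members were called among 56 cytosolic ribosomal protein genes (1 higher, 2 lower) and 68 mitochondrial ones (0 and 3), and 0 of 21 genes of ER folding and heat shock. Of 33 proteasome genes 2 were higher and 4 lower and of 18 tRNA synthetases 1 and 2, near the 17.8% called over all genes.

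**Figure D2:**
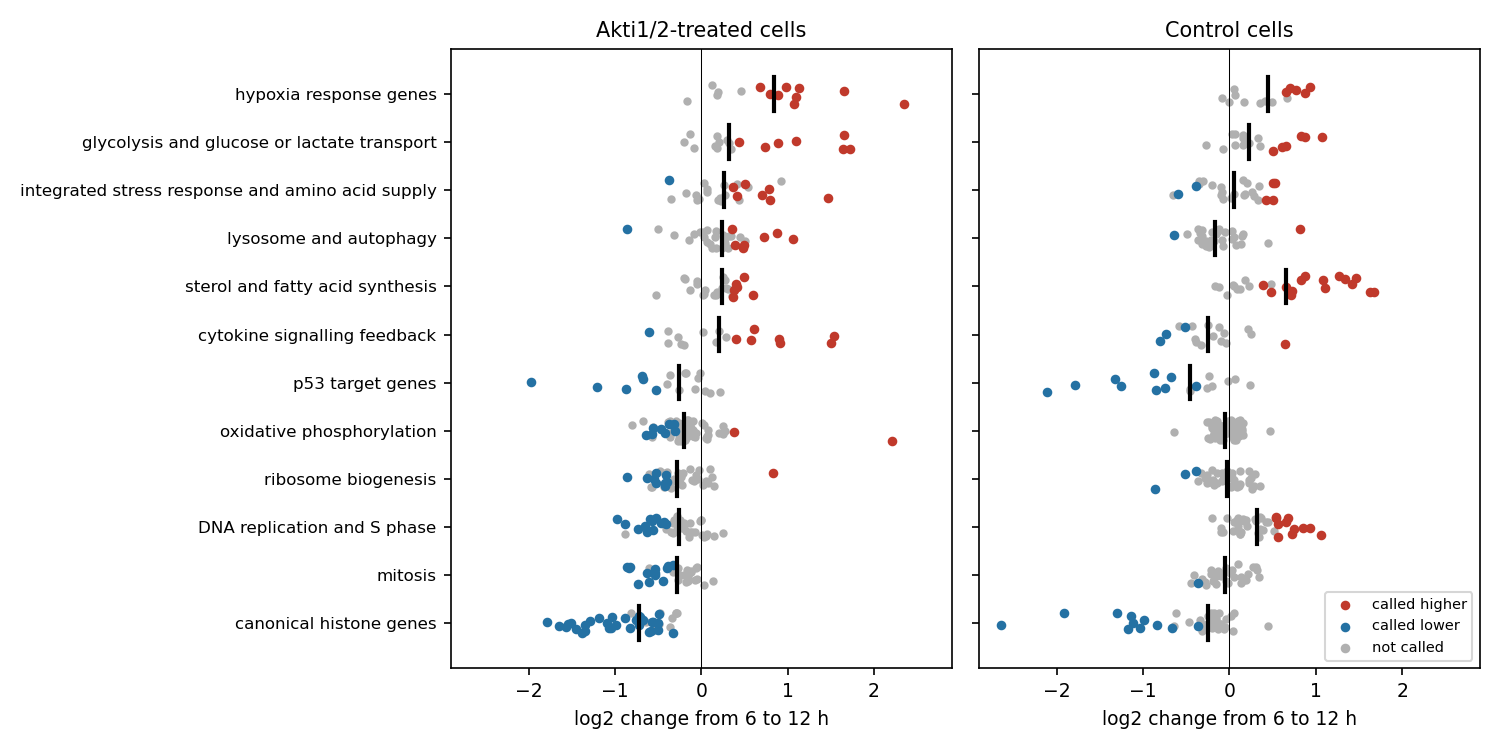
Log2 change from 6 h to 12 h (horizontal axes) of each tested member of 12 gene lists in treated cells (left) and control cells (right), 1 point per gene, where red is called higher, blue called lower, grey not called, and the black bar is the median of the list. In treated cells the medians run from 0.85 for hypoxia genes to -0.72 for histone genes, and DNA replication genes lie mostly below 0 in treated cells and above 0 in control cells.

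Cells without the inhibitor also changed between these times, and the changes were in part those of the treated cells. In control cells 1005 genes were called (13.6% of genes tested), 514 higher and 491 lower. The count was 399 to 507 with each of the 4 control arrays left out. The treated and the control arrays have no array in common, and 369 genes were called in both, which is 28.1% of the calls with Akti1/2 and 36.7% of those without. Of these, 339 moved in the same direction and 30 in opposite directions. Across the 7395 genes the changes with and without inhibitor correlated at r = 0.389, a description across genes, which are not independent replicates. Zmat3, Dnajc6 and H2bc4 fell in control cells as well, with changes of -2.12, -2.20 and -1.91, and the differences from the treated cells were 0.146 ± 0.276, 0.195 ± 0.192 and 0.125 ± 0.362 (SE), and none passed the test (adjusted p of 0.815, 0.612 and 0.887). Other genes named above also moved the same way in control cells. With single control arrays left out, the change there ran from -1.303 to -1.023 for Cd69 and from 1.056 to 1.186 for Ctla4. It ran from -1.377 to -1.154 for Areg and from -1.375 to -1.337 for Phlda1.

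**Figure D3:**
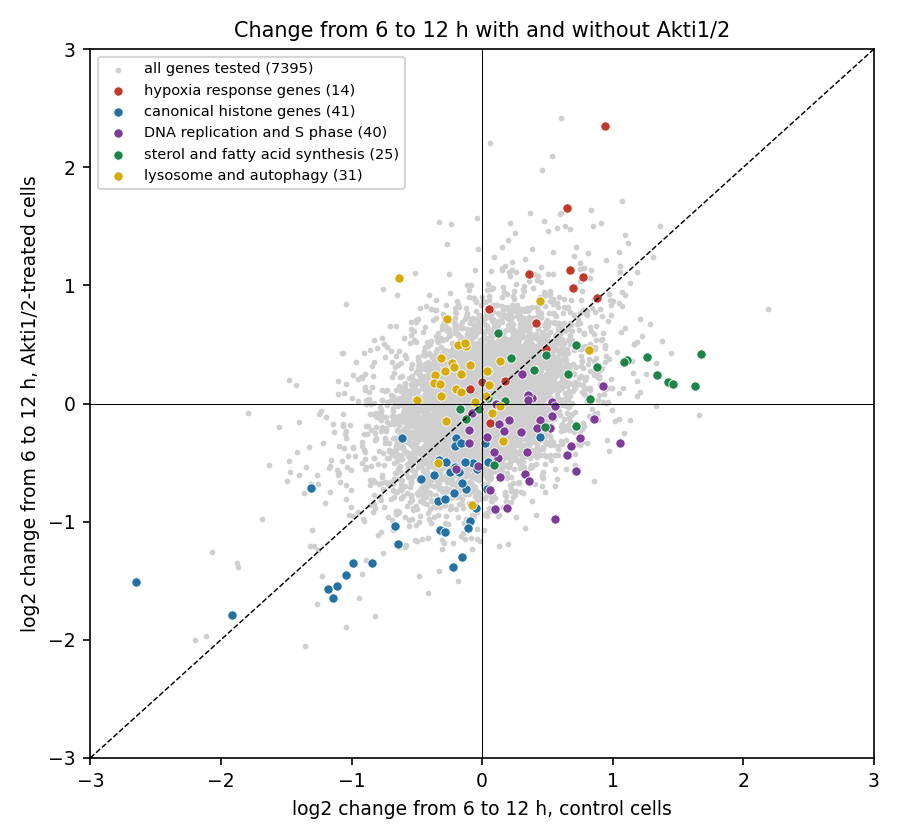
Log2 change from 6 h to 12 h in treated cells (vertical axis) against that in control cells (horizontal axis) for the 7395 genes tested (grey), with 5 gene lists in colour and a dashed line where both changes are equal. Hypoxia genes lie mostly above the line, DNA replication and sterol genes mostly below it, and across all genes r = 0.389.

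The difference between the changes was tested as the change with Akti1/2 minus the change without, and 438 genes were called in it (5.92% of genes tested), 222 higher (3.0%) and 216 lower (2.92%). Its standard error had a median of 0.214, against 0.152 for the change in treated cells. The count was lower, between 137 and 265, without any one control array or either treated array at 12 h, and 126 when only the 8 arrays of the 4 groups were fitted. Of these 126, 63.5% were higher, and of the 258 called after scaling to a common 95th percentile 68.6%, against 50.7% above. Dusp4 was highest in it among the genes above background on all 8 arrays after Rgs9. It rose with Akti1/2 and was at 8.43 and 8.68 at 6 h and at 8.29 and 8.15 at 12 h in control cells, a difference of 1.87 ± 0.25 (adjusted p = 0.00225). Rgs9, a regulator of G protein signalling, was at 7.91 and 7.54 and then at 8.54 and 8.60 with Akti1/2, and at 6.76 and 7.32 and then at 5.92 and 6.07 without (difference 1.89 ± 0.32, adjusted p = 0.00692). Ak4 was at 8.15 and 8.08 and then at 8.74 and 8.70 in control cells, above the treated cells at 6 h and level with them at 12 h (difference 1.81 ± 0.19, adjusted p = 0.000805). Khnyn, a protein of antiviral RNA decay, differed by 1.76 (adjusted p = 0.00163).

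Replication genes leaned in opposite directions with and without the inhibitor. In control cells 11 of the 40 were higher at 12 h (6.95% over all genes) and 0 lower, with a median of 0.32, and in the difference 13 were lower (2.92% over all genes) and 0 higher, with a median of -0.58. Tk1 was at 8.21 and 8.26 at 6 h and at 8.76 and 8.81 at 12 h in control cells, while it fell in treated cells, and the difference was -1.53 ± 0.16 (adjusted p = 0.000805). At 0 h the means were 8.78 without and 8.84 with inhibitor, and the mean of the treated cells at 12 h, 6.90, was the lowest of the 8 groups. Kif2c, of the mitosis list, also differed (-1.01 ± 0.18, adjusted p = 0.00985), as did Mapre2, a microtubule end-binding protein (-1.39 ± 0.26, adjusted p = 0.0127). The control rises of the list numbered 5 without the first control array at 6 h and 7 without the second at 12 h. The 13 became 6 to 8 without the first control array at 6 h, either control array at 12 h or either treated array at 12 h.

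Fewer genes of sterol and fatty acid synthesis were called in treated than in control cells, and part of them differed in the test of the difference. Of 25 tested genes 15 were higher at 12 h in control cells (6.95% over all genes), with a median of 0.66, and 6 in treated cells (8.91% over all genes), with a median of 0.24, and 0 were lower in either. In the difference 7 were lower (2.92% over all genes) and 0 higher, with a median of -0.56. Under all other settings tried, the median in the difference ran from -0.671 to -0.168 and that in control cells from 0.248 to 0.668. Mvd, a decarboxylase of the mevalonate pathway, was at 7.43 and 7.39 and then at 9.12 and 9.05 in control cells, and at 10.04 and 10.11 and then at 10.56 and 10.42 in treated cells. The treated cells were thus the higher ones at both times and the control cells the ones that moved more (difference -1.26 ± 0.17, adjusted p = 0.00212). Sqle, squalene epoxidase, had the same order, with 10.22 and 10.10 and then 11.28 and 11.27 in control cells, 11.08 and 11.08 and then 11.47 and 11.42 in treated cells, and a difference of -0.74 ± 0.14 (adjusted p = 0.0108). Msmo1, a sterol demethylase, differed by -1.48 (adjusted p = 0.029), a call that held with 2 of 8 arrays left out (adjusted p up to 0.104, without the first treated array at 12 h). The rises in treated cells were small: the call of Mvd held with 0 and that of Sqle with 1 of the 4 treated arrays left out (adjusted p up to 0.175 and 0.109, without that array), and the 6 called became 0 without it or without the second at 6 h, and 2 without the second at 12 h. The 15 of the control cells became 9 without the first control array at 12 h. The sterol regulatory element, searched as TCACNCCAC on both strands, was in 0 of 19 windows of the 16 genes found, against 1.24% of all windows. At so low a share, 0 of 19 windows cannot be told from the background, and nothing is read from it.

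Among lysosome, feedback and quiescence genes, several were higher in the difference. Sqstm1 was at 10.88 and 10.72 at 6 h and at 10.14 and 10.18 at 12 h in control cells, and its difference of 1.71 ± 0.16 had an adjusted p of 0.000715. Atp6v0d1 differed by 0.99 (adjusted p = 0.00389) and Smpd1 by 1.01 (adjusted p = 0.00921). Over the 31 lysosome and autophagy genes 3 were higher in the difference (3.0% over all genes) and 0 lower, with a median of 0.41. Of 17 feedback genes 3 were higher, of 20 FOXO and quiescence genes 4 and of 18 NF-κB genes 4, and 0 were lower in each. The NF-κB count was lower whichever array was left out, and the other counts also moved. Cish, a STAT5-induced inhibitor of cytokine signalling, was at 11.98 and 11.84 and then at 12.27 and 12.35 in treated cells, and fell by 0.74 in control cells (difference 1.14 ± 0.16, adjusted p = 0.00304). Btg1, an antiproliferative gene, was at 13.56 and 13.72 and then at 14.03 and 13.95 in treated cells and fell by 0.97 in control cells (difference 1.32 ± 0.15, adjusted p = 0.00117). The rises of Cish and Btg1 in treated cells did not hold with each array left out (adjusted p up to 0.158 and 0.177), whereas their differences did. Relb, an NF-κB subunit, and Ccl3 differed by 1.31 and 1.22 (adjusted p of 0.00829 and 0.00304), and the changes in control cells were -0.86 and -0.51. With single control arrays left out, the fall of Relb in control cells was called in 3 of 4 fits and that of Ccl3 in 0 of 4.

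Hypoxia genes were called higher in both kinds of cells, and the difference was called for 3 of 14, all higher (3.0% over all genes). For Ankrd37 (1.41) it held with 2 of 8 arrays left out (adjusted p up to 0.116, without the first treated array at 12 h) and for Slc2a1 (1.01) with 5 of 8 (up to 0.0591, without the second control array at 12 h), and the 3 became 0 without the first treated array or the second control array at 12 h or the first control array at 6 h. Hilpda and Eno2, outside the list, differed by 1.24 and 1.52 (adjusted p of 0.00644 and 0.00875) and these calls held with every array left out. So did those of Mreg (1.56), Sdc4 (1.01) and Fzd7 (1.07). A higher difference is not a higher level. Means of Sdc4 were 5.88 and then 7.49 with Akti1/2 and 7.50 and then 8.10 without. Those of Ankrd37 were 8.28 and then 10.63 with it and 9.86 and then 10.80 without. Mreg, Eno2, Slc2a1 and Hilpda were lower with the inhibitor at 6 h and higher with it at 12 h. Il5 differed by -1.39 (adjusted p = 0.0424), a call that held with only 1 of 8 arrays left out (adjusted p up to 0.15, without the first treated array at 12 h), and Nkg7 differed by -1.19 (adjusted p = 0.00296). Among the 41 histone genes 5 were lower (2.92% over all genes) and 1 higher in the difference, and the 5 became 1 to 3, near that share, with single arrays left out. The 1 that was higher was H1f2, which fell by 2.65 in control cells, more than in treated cells (difference 1.14 ± 0.14, adjusted p = 0.00171).

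**Figure D4:**
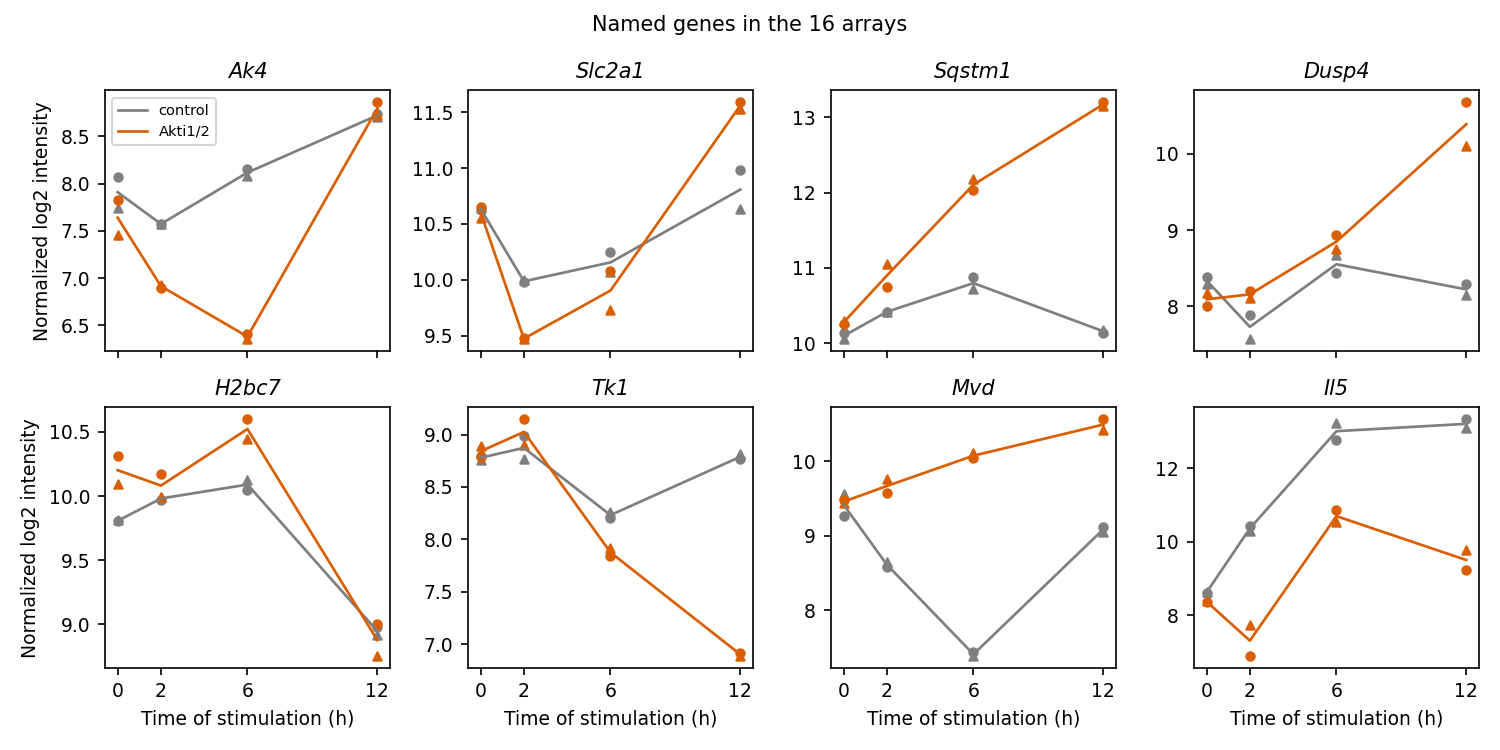
Normalized log2 intensity (vertical axes) of 8 genes at 0, 2, 6 and 12 h of stimulation (horizontal axes) in control cells (grey) and treated cells (orange), with circles for replicate 1, triangles for replicate 2 and lines through the means. From 6 h to 12 h Ak4, Slc2a1, Sqstm1 and Dusp4 rise in treated cells, H2bc7 falls with and without inhibitor, Tk1 and Il5 fall in the orange lines and not in the grey ones, and Mvd rises more in the grey line (1.68) than in the orange one (0.42).

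Markers of other cells were mostly not above background, and a few single genes changed. The intensity above the negative controls, summed over the 9 T helper genes, was 18510 and 26080 at 6 h and 22750 and 17660 at 12 h in treated cells, and Cd3g was the brightest of them. For the 9 macrophage or monocyte genes it was 87.6 and 75.1 and then 193 and 135, with Cd68 as the only gene above background and Lyz1, Lyz2, Csf1r, Itgam, Adgre1, Cd14, Fcgr3 and Tyrobp above it on none of the 4 arrays. Cd68 encodes a lysosomal membrane protein. For the 5 mast cell or basophil genes the sum was 2057 and 3364 and then 1573 and 1216, almost all of it Fcer1a, with Cpa3, Mcpt4 and Ms4a2 above background on none. The remaining gene, Mcpt8, was above background on some of the 4 arrays, and its change did not pass the test. For the 7 cytotoxic T or NK cell genes the sum was 85.9 and 145 and then 138 and 96.2. Prf1 was above background on all 4 arrays and its change did not pass the test, and the other genes were above it on none. For the 4 erythroid genes the sum was 396 and 448 and then 131 and 140, and for the 8 genes of antigen-presenting cells 704 and 750 and then 1029 and 730, with H2-Eb1 the brightest, Cd74 also above background, and H2-Aa, H2-Ab1, Ciita, Cd86, Itgax and Flt3 above it on none. Of these single genes, Cd68 and Cd74 were higher at 12 h (adjusted p of 0.0138 and 0.00219), and Fcer1a and Hba-a1 were lower (adjusted p of 0.00061 and 1.56e-05). The latter pair was also lower in control cells (adjusted p of 0.0132 and 0.00106). Cd68, Cd74, Fcer1a, H2-Eb1 and Prf1 are named here because they carry these sums, and the part of such markers in the changes was not tested.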

How the data were processed

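The authors hybridised biotinylated cRNA made from total RNA to Illumina mouse bead arrays and exported it from GenomeStudio, without normalization or background subtraction, and the deposited values are intensities, 1 per gene and array. The 16 arrays lie on 2 chips of 8 arrays, and 832 control entries include 798 negative controls. Here intensities were background corrected and quantile normalized with neqc (limma 3.58.1, R 4.3.3, offset 16). A gene counted as above background on an array if fewer than 0.01 of the negative control beads reached its intensity, and was tested if this held on at least 2 of 16 arrays. One limma model held all 8 groups (8 residual and 4.26 prior degrees of freedom), with Benjamini-Hochberg adjustment over 7395 genes and a threshold of 0.05. Contrasts were 12 h minus 6 h with Akti1/2, without it, and their difference. The number of arrays, 2 per group, limits the precision.

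Genes named were the 12 largest rises and falls above background on all 4 arrays, the 4 highest and lowest differences, the 3 largest bounds in each direction, and up to 4 members with the smallest p and the brightest of each list, and not all of these are printed. Hilpda, Eno2, Smpd1 and Maob enter by the first of these. Some differences are given for genes so chosen. Members and lists were chosen with earlier results of these data known. Symbols are those of RefSeq for the 16590 of 18138 genes whose identifier matched. Alternatives were other normalizations and scalings, other filters, blocks for replicate number or chip, fits of the compared arrays alone, an intensity trend, each array left out, and the J5 score that the study used, at a threshold of 20 that it states for its 2 h lists and not for these times. The pipeline was tested on simulated data.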

Additional observations from a re-analysis of the deposited data

Results flagged for a closer look

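The change from 6 h to 12 h differed with and without Akti1/2 in 438 genes by limma's test of the difference itself (adjusted p under 0.05), and the named ones are given here as the change with the inhibitor minus the change without it, on the log2 scale. Among metabolic and hypoxia genes the difference was 1.81 for Ak4, 1.41 for Ankrd37, 1.01 for Slc2a1, 1.24 for Hilpda and 1.52 for Eno2. Mreg differed by 1.56, Sdc4 by 1.01 and Fzd7 by 1.07. For lysosomal genes it was 1.71 for Sqstm1, 0.99 for Atp6v0d1 and 1.01 for Smpd1. In signalling it was 1.87 for Dusp4, 1.14 for Cish, 1.89 for Rgs9, 1.22 for Ccl3 and 1.31 for Relb, and it was 1.32 for Btg1, 1.76 for Khnyn and 1.14 for the histone gene H1f2.

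Lower in the difference were Tk1 with -1.53, Kif2c with -1.01 and Mapre2 with -1.39, the sterol genes Mvd with -1.26, Sqle with -0.745 and Msmo1 with -1.48, and Il5 with -1.39 and Nkg7 with -1.19.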

How the results depend on the processing

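The direction of the change with Akti1/2 held for the 86 named genes under the alternatives run (75 of them where only genes above background on all arrays were kept), except for Msmo1, whose change did not pass the test (0.15) and ran from -0.302 without the first treated array at 6 h to 0.606 without the second. Without background correction the changes of dim genes were smaller: 24 of the 86 moved by over 1.5 times under quantile normalization. When only the arrays of the groups compared were fitted, 335 genes were called with Akti1/2 against 1313, and 126 in the difference against 438, and 64 of the 86 named genes kept their side of the threshold. That fit has fewer samples. Scaling to a common 95th percentile gave 582 calls in control cells against 1005 and 258 in the difference. With single arrays left out, the calls ran from 597 to 1509 with Akti1/2, from 399 to 507 without it, and from 137 to 596 in the difference, the highest of the first and last being without the first treated array at 6 h. The J5 score called 129 genes with Akti1/2 (82 higher, 47 lower), of which limma called 68, and the cause of the gap was not tested. With the replicate number as a block (replicate block) the calls were 1277, 988 and 391, and 86 of 86 named genes kept their call. Arrays of the same number correlated at 0.102 in their deviations between the treated groups. With 2 arrays per group the deviations of replicate 2 mirror those of replicate 1, so this is only 1 comparison. These treated arrays share a chip as well as a number, and no source says that they share a culture or day, so the block was kept as an alternative. Of the control arrays at 12 h, replicate 1 lay on chip 2 and replicate 2 on chip 1, so there the replicate block does not follow the chip. With the chip as a block the calls were 1289, 991 and 394. Genes near the negative controls have only bounds.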
